A study of Homo sapiens with 18 samples.

Results

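The 32 genes described here encode enzymes of cholesterol synthesis, enzymes of fatty acid synthesis and desaturation, and the regulators of both pathways. They were chosen by gene symbol: 19 sterol synthesis enzymes, 5 regulators or sterol carriers and 8 fatty acid genes. All 32 were found among the 58735 genes of the count table, and all 32 were among the 17409 genes that passed the filter on low counts. RNA was sequenced from HaCaT, a spontaneously immortalised line of human skin keratinocytes, and from TIGK, a telomerase-immortalised line of human gingival keratinocytes. Each line was collected without a scratch (0 h) and at 6 h and 24 h after a scratch was made through the cell layer, with 3 libraries in each of 6 groups and 18 libraries in all. Nothing in the labels says that the 3 libraries of a group came from separate cultures, so p-values measure the spread between libraries, which may be technical. Each keratinocyte type is a single line, so the comparison is between HaCaT and TIGK rather than between skin and gingiva at large. The medium in which each line was grown is not given in the sources used here. No unscratched library of a later time was analysed here, so hours after scratching and hours in culture cannot be told apart.

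Cholesterol is built from acetyl-CoA by way of mevalonate, isoprenoid diphosphates, squalene and lanosterol, and the same acetyl-CoA feeds fatty acid synthesis. Most enzymes of both routes are transcribed under the sterol regulatory element-binding proteins (SREBPs), the products of SREBF1 and SREBF2. SREBPs are made as membrane proteins of the endoplasmic reticulum. When sterols are low, the escort protein SCAP carries them to the Golgi for cleavage, and when sterols are high, INSIG1 holds SCAP back. In epidermis, keratinocytes use both pathways to make the cholesterol and fatty acids of the water barrier.

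The libraries held 14238090 to 25011331 counts, and levels are given as CPM, read counts relative to library size after scaling by edgeR's trimmed mean method (TMM), in the order of the libraries' letters A, B and C. TIGK 0 h C and TIGK 6 h C stood apart from the other 16 libraries, with 26246 and 25161 genes having a count against 21164 to 22799, and with mitochondrial shares of 5.08% and 4.98% against 5.84% to 8.08%. They were also the deepest libraries, with 25011331 and 18039684 counts against 14238090 to 17264601. The part of depth in their gene numbers was not tested. All 8 keratinocyte markers were found in every group, with a summed level of 40247 to 44924 CPM over the HaCaT libraries and 37156 to 46777 CPM over the TIGK libraries. The 6 fibroblast markers summed to 20.9 to 40.5 CPM in HaCaT, where PDGFRA was at 0 in all groups and COL1A2 at 0 h and 6 h, and 235 to 434 CPM in TIGK. The sum was highest at 24 h in both lines, with 37.5 to 40.5 CPM against 24.4 to 28.8 CPM at 0 h in HaCaT, and 389 to 434 CPM (with COL1A2 at 0) against 235 to 273 CPM at 0 h in TIGK. Of the 4 fibroblast markers tested, 1 (COL1A1) rose at 24 h against 0 h in HaCaT and all 4 in TIGK, and their part in the results below was not tested. Melanocyte, immune and endothelial markers each summed to under 10 CPM in every library.

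The promoters of 28 of the 32 genes were matched in a RefSeq table (GRCh38.p14). Each window ran from 250 bases before to 50 bases after a RefSeq start, 300 bases in all. For each gene the window nearest the annotated start was taken, with no limit on distance. Some windows do not cover the annotated start, among them those of FADS1, FADS2 and ACLY. The FADS2 window begins at chr11:61815953, while the gene is annotated from chr11:61792980. Each window was searched on both strands for the sterol regulatory element core TCACNCCAC, for CCAAT, the box bound by NF-Y, a frequent partner of SREBPs, and for the E-box CACGTG, which SREBPs can also bind. A match is a description of the letters only, and in the printed windows no matches overlap each other. CCAAT was in 18 of the 28 promoters (64.3%) and in 36.3% of all 17360 promoters of the table. CACGTG was in 4 of the 28 (14.3%) against 8.55% of all promoters. TCACNCCAC was in 1 of the 28 (3.57%), that of SREBF2, against 1.11% of all promoters. The promoters printed here are those of HMGCS1, MSMO1, INSIG1 and the SREBP genes. HMGCS1, MSMO1 and INSIG1 fell in TIGK at 6 h and rose in HaCaT at 24 h. Letters of a matched motif are in capitals on the strand of the gene, where CCAAT on the other strand reads ATTGG.
INSIG1, chr7:155297628-155297927, plus strand: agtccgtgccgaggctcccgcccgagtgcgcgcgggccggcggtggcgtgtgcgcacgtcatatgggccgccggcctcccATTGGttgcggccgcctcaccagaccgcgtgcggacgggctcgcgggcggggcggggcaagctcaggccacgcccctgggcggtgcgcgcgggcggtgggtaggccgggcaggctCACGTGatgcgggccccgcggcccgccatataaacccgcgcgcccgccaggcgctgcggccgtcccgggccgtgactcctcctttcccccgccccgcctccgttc
HMGCS1, chr5:43313363-43313662, minus strand: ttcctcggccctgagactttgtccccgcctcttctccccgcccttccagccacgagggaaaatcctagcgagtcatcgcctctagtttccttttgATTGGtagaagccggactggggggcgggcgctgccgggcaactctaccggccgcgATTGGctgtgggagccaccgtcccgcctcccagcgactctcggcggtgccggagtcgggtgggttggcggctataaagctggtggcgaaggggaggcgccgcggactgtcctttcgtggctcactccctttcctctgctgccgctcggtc
MSMO1, chr4:165327419-165327718, plus strand: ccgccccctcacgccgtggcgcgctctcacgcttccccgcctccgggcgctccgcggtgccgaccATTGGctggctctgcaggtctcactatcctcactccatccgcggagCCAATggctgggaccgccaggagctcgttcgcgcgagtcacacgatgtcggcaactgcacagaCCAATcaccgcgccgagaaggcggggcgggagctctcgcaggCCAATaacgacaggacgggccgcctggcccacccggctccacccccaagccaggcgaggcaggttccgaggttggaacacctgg
SREBF2, chr22:41832855-41833154, plus strand: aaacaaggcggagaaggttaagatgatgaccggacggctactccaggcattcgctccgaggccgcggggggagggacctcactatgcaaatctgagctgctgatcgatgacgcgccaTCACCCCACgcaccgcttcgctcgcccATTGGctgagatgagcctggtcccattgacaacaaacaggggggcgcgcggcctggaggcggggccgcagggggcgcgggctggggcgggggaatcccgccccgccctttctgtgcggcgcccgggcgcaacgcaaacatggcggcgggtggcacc
SREBF1, chr17:17836937-17837236, minus strand: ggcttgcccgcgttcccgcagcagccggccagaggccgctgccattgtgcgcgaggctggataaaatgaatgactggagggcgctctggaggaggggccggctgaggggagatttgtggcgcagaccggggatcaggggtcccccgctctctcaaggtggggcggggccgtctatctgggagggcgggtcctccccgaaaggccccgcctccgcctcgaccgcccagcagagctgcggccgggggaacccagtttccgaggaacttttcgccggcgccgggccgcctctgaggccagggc
The INSIG1 window holds 1 CCAAT box and 1 E-box, the HMGCS1 window 2 CCAAT boxes and the MSMO1 window 4. The SREBF2 window holds 1 sterol element core and 1 CCAAT box, and the SREBF1 window none of the 3 motifs. Only 1 window per gene was searched, so any other start of these genes was not examined.

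In HaCaT, the genes changed little by 6 h and rose broadly by 24 h. Of the 32 genes, 25 were higher and 1 was lower at 24 h than at 0 h by edgeR's quasi-likelihood test at a false discovery rate (FDR) under 0.05, where 31.4% of all tested genes were called and 15.5% were called higher. The median change of the 32 genes was 0.40 on the log2 scale, against 0.00 over all tested genes. In bulk RNA, fewer cells that express a gene and less RNA per cell cannot be told apart. The 25 were 15 of the 19 sterol enzymes, 4 of the 5 regulators and carriers, and 6 of the 8 fatty acid genes. LBR was the gene that fell, and PMVK, CYP51A1, NSDHL, SCAP, ACACA and ELOVL6 did not pass the test. Against 6 h, 24 were higher and 2 were lower at 24 h (35.7% of all genes called, 17.6% higher and 18.1% lower). That comparison shares the 24 h libraries with the one above. At 6 h against 0 h, 1 gene was called, SREBF1, which fell, where 0.201% of all genes were called and 0.0632% were called lower. The other 31 had 6 h changes between -0.20 and 0.15 on the log2 scale. The SREBF1 call was lost when HaCaT 0 h A, 0 h B, 6 h A, 6 h B or 6 h C was left out, with an adjusted p of up to 0.25. An adjusted p given as "up to" a value is the highest over all alternatives tried for that call. At 24 h against 0 h, leaving out any of 0 h A, B and C or 24 h A and B ended the call of DHCR7. Any of 0 h A and C or 24 h A, B and C did so for FDPS, 0 h B for EBP, and 0 h B or 24 h B for FASN and SCD, with adjusted p of up to 0.12.

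In TIGK, the genes that changed by 6 h all fell, and by 24 h most of the fatty acid genes were lower. Of the 19 sterol enzymes, 7 were lower and 3 were higher at 24 h than at 0 h. At 6 h against 0 h, 10 of the 32 genes fell and none rose. Of all genes 3.62% were called, 1.12% lower and 2.5% higher. The 10 were 7 sterol enzymes (HMGCS1, MVK, MVD, IDI1, FDFT1, MSMO1 and HSD17B7), INSIG1, ACLY and ACSS2, and the median of the 32 genes was -0.21 on the log2 scale against -0.02 over all genes. At 24 h against 0 h, 14 fell and 5 rose (32.3% of all genes called, 17% called lower and 15.3% higher). The 5 were near the share of all genes that rose. The 14 were 7 of the 8 fatty acid genes and 7 of the 19 sterol enzymes, and the 5 that rose were STARD4, SREBF2, MVK, LBR and HSD17B7. Against 6 h, 12 were higher and 4 were lower at 24 h (36.7% of all genes called, 17.8% higher and 18.9% lower). Of the 12, 8 were sterol enzymes and the other 4 were SREBF1, SREBF2, INSIG1 and STARD4. At 6 h, leaving out 1 library ended the calls of ACSS2 (0 h B or 6 h B), MVK (6 h A) and HSD17B7 (0 h A or C, 6 h A or B), with adjusted p of up to 0.099. With both libraries that stand apart left out, 9 genes fell, without HSD17B7. At 24 h against 0 h, 14 to 19 genes were called with 1 library left out. The calls lost were of ACAT2 and FDPS (0 h C or 24 h A), ACSS2 (0 h B or 24 h B), HSD17B7 (0 h B or 24 h C), LBR (0 h B or C, 24 h A or B), MVD (0 h B, 24 h A or B), MVK (24 h C) and NSDHL (0 h B or C, 24 h A), with adjusted p of up to 0.21. At 24 h against 6 h they were of SCD (6 h A or B, 24 h B or C), ELOVL6 (6 h C, 24 h A or C), MVD (6 h A or C, 24 h C) and TM7SF2 (24 h B), with adjusted p of up to 0.26, and the SCD call was also lost with RLE scaling, the stricter filter, only the groups compared and both limma fits. At 24 h against 6 h in HaCaT, that of ELOVL6 was lost without 6 h C, 24 h A or 24 h B (up to 0.069).

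Counted over pairs of comparisons that share no library, some genes rose in HaCaT and fell in TIGK. Of the 32, 10 rose in HaCaT at 24 h against 0 h and fell in TIGK at 6 h against 0 h, a pair of calls that 0.5% of all genes had. The times of this pair differ, and the 10 were all the genes that fell in TIGK at 6 h. At 24 h against 0 h in TIGK, MVK and HSD17B7 of them rose, and INSIG1, IDI1, FDFT1 and MSMO1 were not called. With both lines at 24 h against 0 h, 11 rose in HaCaT and fell in TIGK, against 1.27% of all genes: ACAT2, HMGCS1, MVD, FDPS, TM7SF2, DHCR7, ACLY, FASN, SCD, FADS1 and ACSS2. Only HMGCS1, TM7SF2, ACLY and FADS1 of these kept both calls whichever 1 library was left out.

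**Figure D1:**
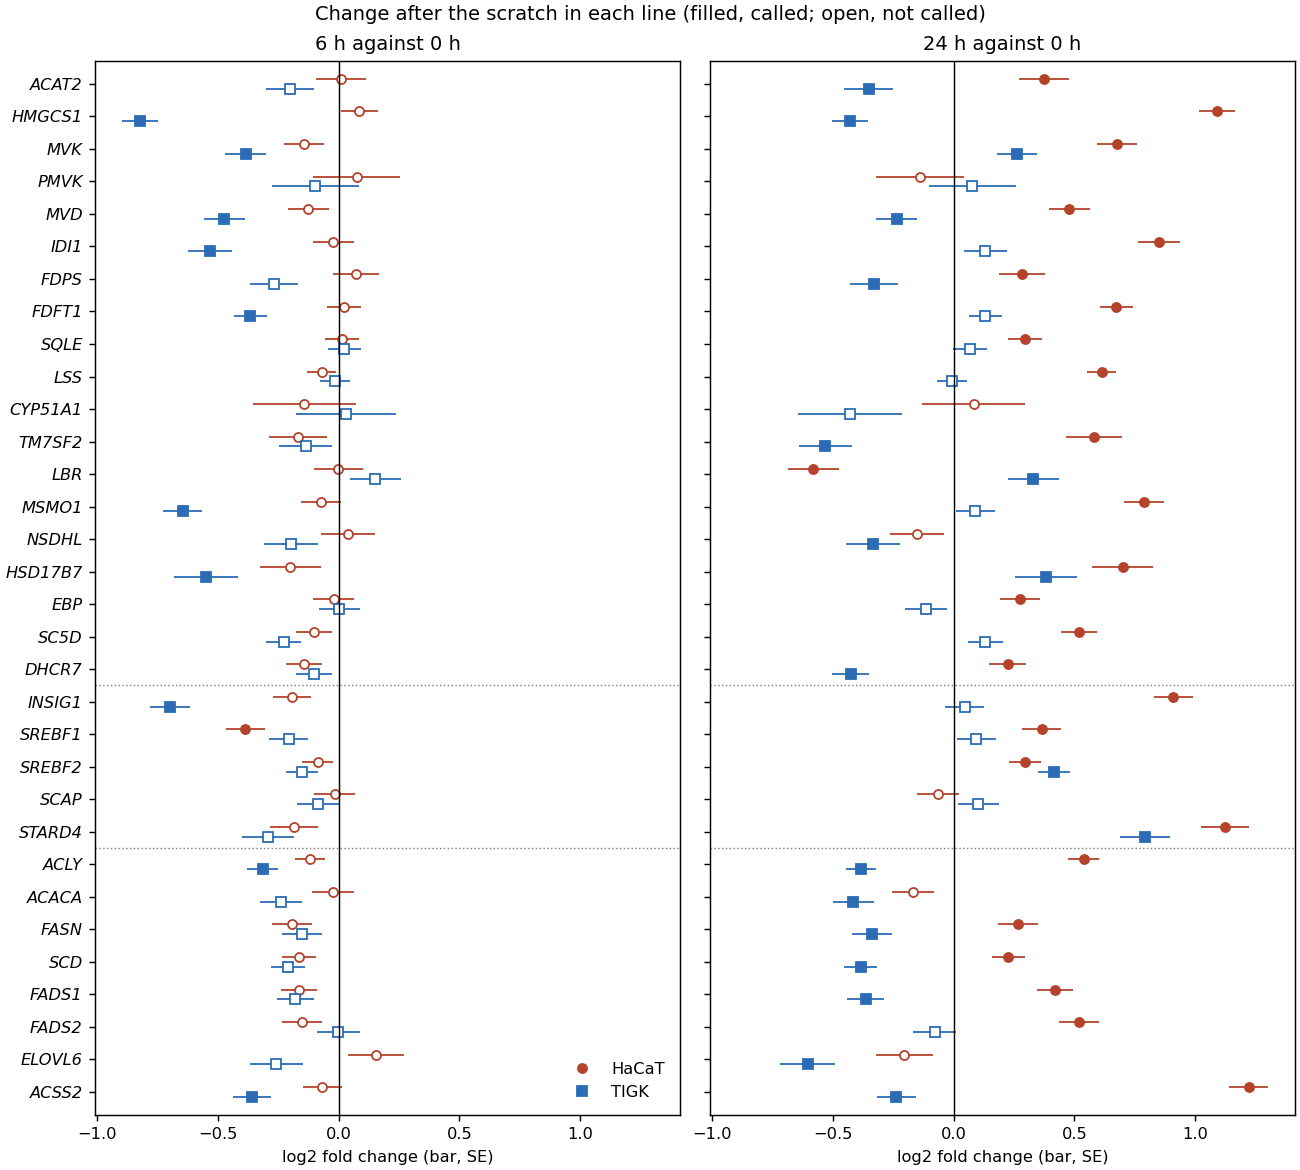
Log2 fold change at 6 h and at 24 h against 0 h for each of the 32 genes, with HaCaT as circles and TIGK as squares, filled where the edgeR test was passed and with bars of 1 standard error (SE). At 6 h filled squares lie left of 0 and 1 filled circle, SREBF1, does so too; at 24 h 25 filled circles lie right of 0, while 14 filled squares lie left of it.

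The regulators were mostly higher in HaCaT, with INSIG1, the brake on SREBP release and itself an SREBP target, showing the largest difference between the lines at 24 h among the 32 genes. In HaCaT, INSIG1 had 309, 312 and 330.3 CPM at 0 h, 273, 282 and 277 CPM at 6 h and 584, 621 and 583 CPM at 24 h. In TIGK, INSIG1 had 152, 152 and 125 CPM at 0 h, 92.4, 93.9 and 78.5 CPM at 6 h and 155, 147 and 141 CPM at 24 h. Every HaCaT library was above every TIGK library at all 3 times. At 24 h against 0 h INSIG1 rose in HaCaT (log2 fold change 0.91 ± 0.08 SE, edgeR adjusted p = 3.5e-09). Its change in TIGK did not pass the test (log2 fold change 0.05 ± 0.08 SE, edgeR adjusted p = 0.71). At 6 h against 0 h its HaCaT change did not pass (log2 fold change -0.19 ± 0.08 SE, edgeR adjusted p = 0.54). It fell in TIGK at 6 h (log2 fold change -0.70 ± 0.08 SE, edgeR adjusted p = 5.1e-06), where the 6 h libraries lay below all 0 h libraries. INSIG1 at 24 h was 4.03 times as high in HaCaT as in TIGK (log2 fold change 2.01 ± 0.08 SE, edgeR adjusted p = 2.4e-16). At 0 h it was 2.22 times as high (log2 fold change 1.15 ± 0.08 SE, edgeR adjusted p = 7.5e-12).

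SREBF1, whose product drives mainly the fatty acid genes, fell and then rose in HaCaT. It had 1062, 1087 and 939 CPM in HaCaT at 0 h, 810.2, 789.9 and 762 CPM at 6 h and 1337, 1348 and 1291 CPM at 24 h. TIGK libraries held 389, 390.5 and 333 CPM at 0 h, 342, 338 and 284 CPM at 6 h and 413, 398 and 375 CPM at 24 h. The 3 HaCaT times did not overlap, and the lowest HaCaT library was above the highest TIGK library. In HaCaT the change was 0.36 ± 0.08 SE, edgeR adjusted p = 0.00095 at 24 h against 0 h, and -0.39 ± 0.08 SE, edgeR adjusted p = 0.035 at 6 h against 0 h, on the log2 scale. The 6 h call was lost without any 1 of the libraries compared except HaCaT 0 h C, and in both limma fits on FPKM (adjusted p of up to 0.25). In TIGK neither the 24 h change (0.09, edgeR adjusted p = 0.41) nor the 6 h change (-0.21, edgeR adjusted p = 0.2) passed the test. SREBF1 was higher in HaCaT at 0 h (log2 fold change 1.47 ± 0.08 SE, edgeR adjusted p = 7.5e-14), and it was called at 6 h and 24 h as well.

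SREBF2, whose product drives mainly the sterol genes, rose by 24 h in both lines. Its HaCaT levels were 317, 340.0 and 342 CPM at 0 h, 315, 313 and 312 CPM at 6 h and 396, 426 and 403 CPM at 24 h. Its TIGK levels were 181, 177 and 171 CPM at 0 h, 168, 159 and 148 CPM at 6 h and 244, 234 and 228 CPM at 24 h. All 24 h libraries exceeded all earlier libraries of their line. The 24 h change against 0 h was 0.30 ± 0.07 SE, edgeR adjusted p = 0.0011 in HaCaT and 0.42 ± 0.07 SE, edgeR adjusted p = 2.7e-05 in TIGK (log2). The difference between these changes was -0.12 ± 0.09 SE, with an edgeR adjusted p of 0.45. SCAP, the escort of both proteins, stood between 73.3 and 85.8 CPM in the 9 HaCaT libraries and between 64.4 and 84.2 CPM in the 9 TIGK libraries. Its HaCaT libraries held 79.5, 73.7 and 85.8 CPM at 0 h, 85.4, 77.1 and 73.7 CPM at 6 h and 78.6, 73.3 and 76.3 CPM at 24 h. Its TIGK libraries held 72.6, 75.5 and 67.1 CPM at 0 h, 71.1, 64.4 and 66.9 CPM at 6 h and 84.2, 78.3 and 68.3 CPM at 24 h. SCAP passed the test in 1 of the 11 comparisons, being higher in HaCaT at 6 h (log2 fold change 0.22 ± 0.09 SE, edgeR adjusted p = 0.03). The call was lost in 8 of 15 alternatives: without HaCaT 6 h A, TIGK 6 h B or TIGK 6 h C, without both libraries that stand apart, without the low-count filter, with DESeq2 and in both limma fits on FPKM (adjusted p of up to 0.17).

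STARD4, a soluble carrier that moves cholesterol between membranes and is an SREBP target, rose by 24 h in both lines. HaCaT libraries had 75.7, 69.7 and 65.4 CPM of STARD4 at 0 h, 57.4, 64.7 and 63.2 CPM at 6 h and 152, 155 and 152 CPM at 24 h. TIGK libraries had 31.5, 25 and 28.9 CPM at 0 h, 24.2, 26.6 and 19 CPM at 6 h and 49.6, 52.1 and 46.1 CPM at 24 h. No 24 h library overlapped the earlier ones of its line. The 24 h change against 0 h was 1.12 ± 0.10 SE, edgeR adjusted p = 4e-09 in HaCaT and 0.79 ± 0.10 SE, edgeR adjusted p = 2.2e-06 in TIGK, on the log2 scale. The difference between the lines did not pass the test (0.33 ± 0.14 SE, edgeR adjusted p = 0.14).

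**Figure D2:**
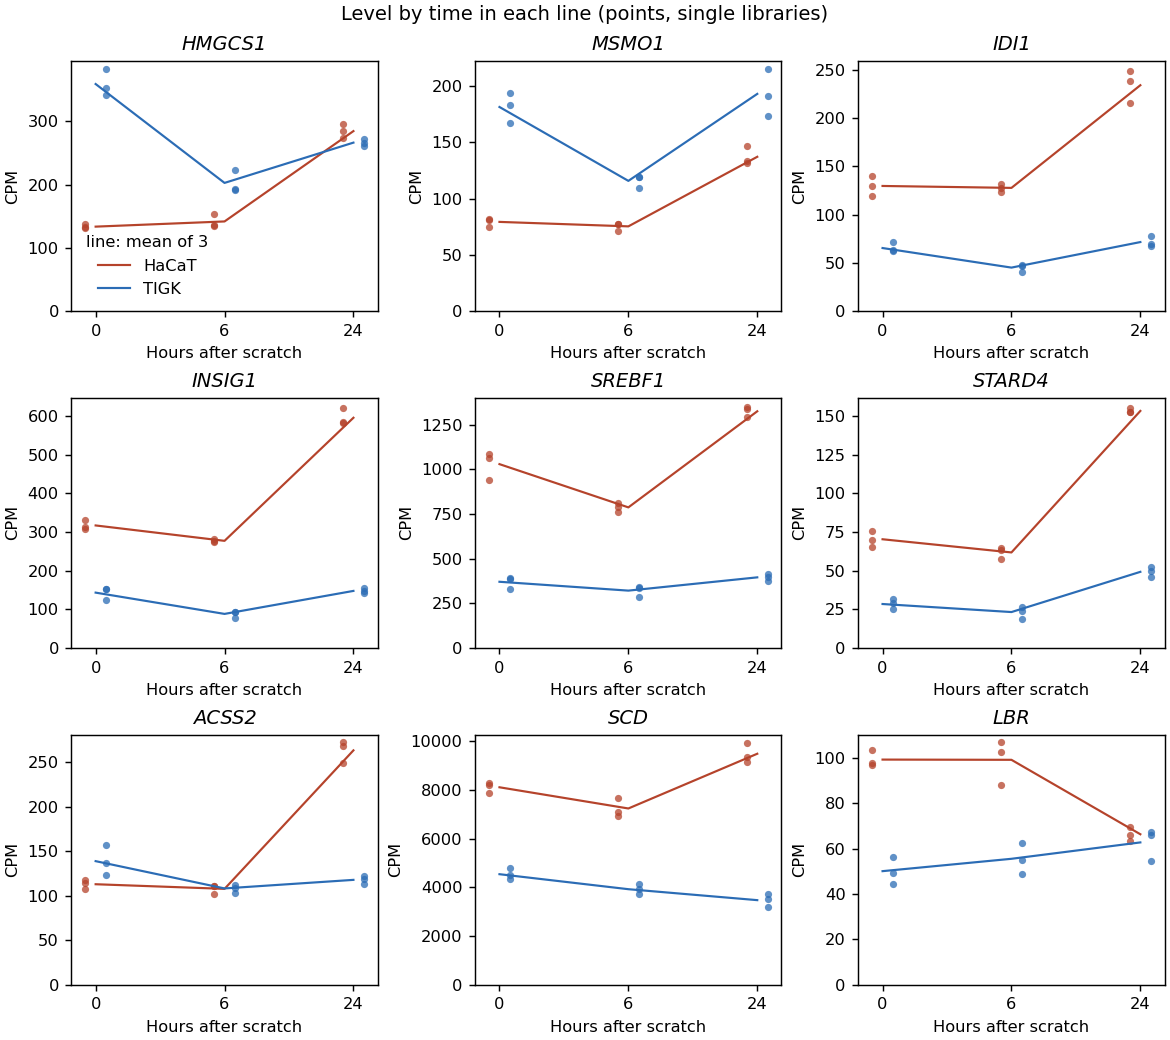
CPM at 0, 6 and 24 h after the scratch for 9 of the genes, with points for single libraries, lines for the mean of 3, HaCaT in red and TIGK in blue; the 3 times are drawn at even spacing. HMGCS1 and MSMO1 dip at 6 h in TIGK and rise at 24 h in HaCaT, where INSIG1 reaches 583 to 621 CPM, and LBR is the panel in which HaCaT goes down at 24 h.

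Among the enzymes that lead to mevalonate and squalene, HMGCS1, which joins acetoacetyl-CoA and acetyl-CoA to HMG-CoA, differed most between the lines in its response. In HaCaT, HMGCS1 had 131, 137 and 132 CPM at 0 h, 135, 154 and 137 CPM at 6 h and 296, 273 and 284 CPM at 24 h. In TIGK, HMGCS1 had 341, 352 and 382 CPM at 0 h, 193, 192 and 223 CPM at 6 h and 266, 272 and 261 CPM at 24 h. HaCaT libraries lay far below TIGK libraries at 0 h, and at 24 h the HaCaT libraries lay just above the TIGK libraries. HMGCS1 was lower in HaCaT at 0 h (log2 fold change -1.43 ± 0.08 SE, edgeR adjusted p = 3.2e-14), and at 24 h the difference was 0.10 ± 0.07 SE, edgeR adjusted p = 0.27. It rose in HaCaT at 24 h against 0 h (log2 fold change 1.09 ± 0.08 SE, edgeR adjusted p = 5.4e-11). It fell in TIGK both at 24 h (log2 fold change -0.43 ± 0.07 SE, edgeR adjusted p = 6.9e-05) and at 6 h (log2 fold change -0.82 ± 0.07 SE, edgeR adjusted p = 9e-08).

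ACAT2, which makes acetoacetyl-CoA, was lower in HaCaT at all 3 times. Its HaCaT libraries held 49.2, 55.3 and 53.5 CPM at 0 h, 50.9, 56.0 and 52.2 CPM at 6 h and 65.5, 66.6 and 72.9 CPM at 24 h. Its TIGK libraries held 97.7, 106 and 121 CPM at 0 h, 81.1, 93.3 and 108 CPM at 6 h and 75.7, 84.4 and 94.5 CPM at 24 h. The line difference was -0.83 ± 0.10 SE, edgeR adjusted p = 1.7e-07 at 6 h on the log2 scale. At 24 h (-0.31) the call was lost without TIGK 24 h C, with an adjusted p of up to 0.08. MVK, which phosphorylates mevalonate, had 87.8, 91.9 and 77.5 CPM in HaCaT at 0 h, 84.0, 74.2 and 74.8 CPM at 6 h and 140.3, 134 and 137 CPM at 24 h. In TIGK it had 88.4, 88.5 and 90.8 CPM at 0 h, 62.4, 72.0 and 70.4 CPM at 6 h and 97.6, 108 and 115 CPM at 24 h. MVK rose at 24 h against 0 h in HaCaT (0.68, log2) and in TIGK (0.26, with adjusted p of up to 0.087 without TIGK 24 h C), and fell in TIGK at 6 h (-0.39).

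MVD, which decarboxylates the mevalonate diphosphate, averaged 209.9 ± 8.81, 192 ± 5.78 and 293 ± 19.1 CPM in HaCaT at 0, 6 and 24 h, and 376 ± 32.2, 270.3 ± 7.66 and 319 ± 43.5 CPM in TIGK (SD, n = 3 each). Its log2 change at 24 h against 0 h was 0.48 in HaCaT and -0.24 in TIGK, both called, the second being lost without TIGK 0 h B, 24 h A or 24 h B (adjusted p of up to 0.18). PMVK, the kinase between MVK and MVD, passed the test in none of the 11 comparisons and averaged 22.1 to 25.7 CPM over the 6 groups. Its libraries spread most in TIGK, with 18.6, 21.5 and 31.4 CPM at 0 h and 18.1, 18.8 and 30.2 CPM at 6 h, where the high values were those of the libraries that stand apart.

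IDI1, the isomerase that makes dimethylallyl diphosphate, and FDPS, which joins these units to farnesyl diphosphate, were higher in HaCaT throughout. IDI1 had 129.6, 140.2 and 119 CPM in HaCaT at 0 h, 124, 127 and 132 CPM at 6 h and 238, 216 and 249 CPM at 24 h. The TIGK libraries had 71.3, 63.2 and 61.9 CPM of IDI1 at 0 h, 48.4, 47.1 and 40.2 CPM at 6 h and 67.3, 78.0 and 69.8 CPM at 24 h. HaCaT stood above TIGK in every library at each time, by a log2 difference of 1.5 ± 0.09 SE, edgeR adjusted p = 3.6e-13 at 6 h and 1.71 ± 0.09 SE, edgeR adjusted p = 2.3e-14 at 24 h. IDI1 rose in HaCaT at 24 h against 0 h (0.85, log2) and fell in TIGK at 6 h (-0.53 ± 0.09 SE, edgeR adjusted p = 0.00051). FDPS averaged 119 ± 9.35, 125 ± 7.44 and 145 ± 2.20 CPM in HaCaT at 0, 6 and 24 h and 57.2 ± 5.63, 47.5 ± 6.73 and 45.6 ± 4.58 CPM in TIGK (SD, n = 3 each). FDFT1, the squalene synthase, averaged 216 ± 4.16, 219.5 ± 2.63 and 345 ± 23.7 CPM in HaCaT and 240.3 ± 5.76, 187 ± 12.3 and 263 ± 13.4 CPM in TIGK (SD, n = 3 each). It rose in HaCaT at 24 h (0.67, log2) and fell in TIGK at 6 h (-0.37).

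From squalene to cholesterol, most enzymes again rose in HaCaT at 24 h against 0 h, while LBR fell and CYP51A1 (0.08, log2) and NSDHL (-0.15) did not pass the test. SQLE, the squalene epoxidase, had 124, 123 and 111 CPM in HaCaT at 0 h, 113, 118 and 131 CPM at 6 h and 145, 144 and 151 CPM at 24 h. TIGK libraries held 223, 214 and 208 CPM of SQLE at 0 h, 226, 218 and 211 CPM at 6 h and 218, 232 and 226 CPM at 24 h. All TIGK libraries were above all HaCaT libraries, and the log2 difference was -0.85 ± 0.07 SE, edgeR adjusted p = 1.7e-10 at 0 h and -0.62 ± 0.07 SE, edgeR adjusted p = 4.1e-08 at 24 h. SQLE rose in HaCaT at 24 h against 0 h (0.30 ± 0.07 SE, edgeR adjusted p = 0.0021), and its TIGK change was 0.07 ± 0.07 SE, edgeR adjusted p = 0.49. LSS, which closes the rings to lanosterol, had 259.9, 267 and 278 CPM in HaCaT at 0 h, 258, 256 and 252 CPM at 6 h and 411, 408 and 412 CPM at 24 h. In TIGK, LSS stayed between 279 and 306 CPM, with 279, 306 and 300.01 CPM at 0 h, 285, 293 and 297 CPM at 6 h and 292, 298 and 289 CPM at 24 h. LSS rose in HaCaT at 24 h against 0 h (0.61, log2), and its 24 h change in TIGK was -0.01 ± 0.06 SE, edgeR adjusted p = 0.94.

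TM7SF2 and LBR encode sterol reductases that can carry out the same step, and they moved in opposite directions. LBR is also a protein of the inner nuclear membrane that binds lamin B. TM7SF2 had 16.5, 19.5 and 17.4 CPM in HaCaT at 0 h, 14.7, 16.5 and 16.3 CPM at 6 h and 26.8, 25.7 and 27.4 CPM at 24 h. TIGK had 53.1, 60.5 and 53.7 CPM of TM7SF2 at 0 h, 52.6, 51.8 and 47.6 CPM at 6 h and 38.8, 31.3 and 45.7 CPM at 24 h. The TM7SF2 level rose in HaCaT at 24 h against 0 h (0.58, log2) and fell in TIGK (-0.53), and at 0 h it was -1.65 ± 0.12 SE, edgeR adjusted p = 6.3e-12 in HaCaT relative to TIGK. LBR had 103, 97.4 and 96.7 CPM in HaCaT at 0 h, 87.8, 107 and 102 CPM at 6 h and 69.6, 63.4 and 65.8 CPM at 24 h. TIGK had 56.4, 49.4 and 44.3 CPM of LBR at 0 h, 62.6, 55.1 and 48.6 CPM at 6 h and 67.4, 66.0 and 54.6 CPM at 24 h. LBR fell in HaCaT at 24 h against 0 h (log2 fold change -0.58 ± 0.10 SE, edgeR adjusted p = 0.00011), with no overlap between the times. In TIGK it rose (log2 fold change 0.33 ± 0.11 SE, edgeR adjusted p = 0.018), a call lost without TIGK 0 h B, 0 h C, 24 h A or 24 h B (adjusted p of up to 0.11).

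MSMO1 is a sterol methyl oxidase that takes part in the removal of the methyl groups of lanosterol. HaCaT libraries had 81.4, 81.9 and 74.6 CPM of MSMO1 at 0 h, 71.3, 77.2 and 77.6 CPM at 6 h and 132, 133 and 146 CPM at 24 h. TIGK libraries had 193, 183 and 167 CPM of MSMO1 at 0 h, 119, 119 and 109 CPM at 6 h and 191, 173 and 215 CPM at 24 h. All HaCaT libraries were below all TIGK libraries at the same time, and TIGK at 6 h lay below TIGK at 0 h and 24 h. MSMO1 rose in HaCaT at 24 h against 0 h (0.79, log2), fell in TIGK at 6 h (-0.65 ± 0.08 SE, edgeR adjusted p = 1.4e-05) and was higher in TIGK at 24 h than at 6 h (0.74 ± 0.08 SE, edgeR adjusted p = 1.4e-07).

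DHCR7, the reductase that yields cholesterol from its dehydro precursor, had 357, 365 and 360.0 CPM in HaCaT at 0 h, 332, 315 and 332 CPM at 6 h and 421, 427 and 414 CPM at 24 h. In TIGK, DHCR7 had 571, 586 and 486 CPM at 0 h, 523, 546 and 461 CPM at 6 h and 421, 413 and 388 CPM at 24 h. The lines were apart at 0 h and 6 h and overlapped at 24 h, with a log2 difference of -0.64 ± 0.08 SE, edgeR adjusted p = 6.2e-08 at 6 h and 0.05 ± 0.08 SE, edgeR adjusted p = 0.6 at 24 h. DHCR7 fell in TIGK at 24 h against 0 h (-0.43 ± 0.08 SE, edgeR adjusted p = 9.3e-05). Of the other late enzymes, HSD17B7 averaged 18.5 ± 0.493, 16.1 ± 1.99 and 30.0 ± 2.02 CPM at 0, 6 and 24 h in HaCaT and 14.1 ± 1.57, 9.59 ± 0.523 and 18.4 ± 2.49 CPM in TIGK (SD, n = 3 each). EBP, a sterol isomerase, averaged 133 ± 8.97, 131 ± 3.21 and 161 ± 2.07 CPM at 0, 6 and 24 h in HaCaT and 90.7 ± 5.71, 90.8 ± 2.33 and 83.9 ± 12 CPM in TIGK (SD, n = 3 each). SC5D, a sterol desaturase, averaged 50.9 ± 1.02, 47.4 ± 2.29 and 73.1 ± 1.88 CPM at 0, 6 and 24 h in HaCaT and 71.5 ± 2.06, 61.0 ± 1.94 and 78.2 ± 4.64 CPM in TIGK (SD, n = 3 each). NSDHL, which removes carbon during demethylation, averaged 46.2 ± 4.14, 47.5 ± 1.54 and 41.5 ± 5.41 CPM at 0, 6 and 24 h in HaCaT and 44.8 ± 4.08, 39.0 ± 3.42 and 35.5 ± 4.95 CPM in TIGK (SD, n = 3 each). It fell in TIGK at 24 h against 0 h (-0.34, log2), a call lost without TIGK 0 h B, 0 h C or 24 h A (adjusted p of up to 0.16). CYP51A1, the lanosterol demethylase, passed the test in none of the 11 comparisons and had 7.38 to 15.4 CPM. Its 2 highest libraries were TIGK 6 h C and TIGK 0 h C, with 15.4 and 15.1 CPM.

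Of the 8 genes that supply acetyl-CoA or build fatty acids, 6 had a higher 24 h response in HaCaT than in TIGK, and ACACA and ELOVL6 did not pass that test. ACSS2, which makes acetyl-CoA from acetate, had 114, 107 and 118 CPM in HaCaT at 0 h, 111, 102 and 110.4 CPM at 6 h and 269, 249 and 273 CPM at 24 h. In TIGK, ACSS2 had 123, 157 and 137 CPM at 0 h, 109, 103 and 112 CPM at 6 h and 119, 113 and 122 CPM at 24 h. All 3 HaCaT libraries at 24 h stood above every other library. The 24 h change against 0 h was 1.22 ± 0.08 SE, edgeR adjusted p = 2.6e-11 in HaCaT and -0.24 ± 0.08 SE, edgeR adjusted p = 0.025 in TIGK, on the log2 scale. The TIGK call was lost without TIGK 0 h B or 24 h B (adjusted p of up to 0.21). ACSS2 was the only gene of the 32 that was lower in HaCaT than in TIGK at 0 h (-0.30) and higher at 24 h (1.16), a change of sides made by 0.752% of all genes. ACLY, which makes acetyl-CoA from citrate, had 404, 404 and 416 CPM in HaCaT at 0 h, 364, 378 and 384 CPM at 6 h and 594, 599.9 and 584 CPM at 24 h. ACLY in TIGK had 402, 412 and 409 CPM at 0 h, 323, 325 and 335 CPM at 6 h and 336, 311 and 290.1 CPM at 24 h. The lines did not differ beyond their spread at 0 h (0.00 ± 0.06 SE, edgeR adjusted p = 0.99), and ACLY then rose in HaCaT at 24 h (0.54, log2) and fell in TIGK (-0.38 ± 0.06 SE, edgeR adjusted p = 4.3e-05).

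SCD, which puts the double bond into stearate, was the most abundant of the 32 transcripts, and took 0.936% to 1.02% of all counts in the HaCaT 24 h libraries. HaCaT libraries held 8270.1, 7874 and 8194 CPM of SCD at 0 h, 6939, 7689.6 and 7097 CPM at 6 h and 9374, 9942 and 9155 CPM at 24 h. TIGK libraries held 4811, 4489 and 4324 CPM of SCD at 0 h, 4125, 3929.7 and 3721 CPM at 6 h and 3715, 3525 and 3185 CPM at 24 h. Every HaCaT library was above every TIGK library, and at 24 h the log2 difference was 1.45 ± 0.07 SE, edgeR adjusted p = 6.8e-15. SCD rose in HaCaT at 24 h against 0 h (0.23, log2) and fell in TIGK (-0.39 ± 0.07 SE, edgeR adjusted p = 0.00012), the HaCaT call being lost without HaCaT 0 h B or 24 h B (adjusted p of up to 0.07). Both changes were smaller than the gap between the lines at 0 h (0.84). FADS1, a desaturase of polyunsaturated fatty acids, had 234, 211 and 233 CPM in HaCaT at 0 h, 203, 210.5 and 193 CPM at 6 h and 302, 316 and 290.4 CPM at 24 h. FADS1 in TIGK had 153, 137 and 163 CPM at 0 h, 132, 125 and 143 CPM at 6 h and 117, 118 and 116 CPM at 24 h. HaCaT was above TIGK in every library, and the 24 h change was 0.42 in HaCaT and -0.37 in TIGK (log2, both called).

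FASN, the fatty acid synthase, averaged 3579.6 ± 128, 3133 ± 30.6 and 4303 ± 293 CPM in HaCaT at 0, 6 and 24 h and 2939 ± 232, 2644 ± 255 and 2324 ± 245 CPM in TIGK (SD, n = 3 each). FADS2, the other desaturase of this pair, averaged 55.7 ± 1.11, 50.1 ± 4.37 and 79.9 ± 3.67 CPM at 0, 6 and 24 h in HaCaT and 26.5 ± 0.899, 26.5 ± 1.63 and 25.1 ± 0.885 CPM in TIGK (SD, n = 3 each). ACACA, the acetyl-CoA carboxylase that makes malonyl-CoA, averaged 131 ± 2.46, 128 ± 8.37 and 116 ± 7.04 CPM at 0, 6 and 24 h in HaCaT and 189.7 ± 16.7, 161 ± 14.7 and 142 ± 14 CPM in TIGK (SD, n = 3 each), where it fell (-0.42, log2). ELOVL6, which elongates palmitate, was lower in HaCaT at all 3 times. It had 20.5, 24.5 and 18.9 CPM in HaCaT at 0 h, 23.4, 23.6 and 24.0 CPM at 6 h and 17.9, 17.9 and 19.8 CPM at 24 h. TIGK libraries had 41.3, 38.6 and 45.0 CPM of ELOVL6 at 0 h, 33.7, 33.8 and 37.0 CPM at 6 h and 24.2, 32.3 and 25.7 CPM at 24 h. No HaCaT library reached the lowest TIGK library of its time. ACACA was likewise lower in HaCaT at all 3 times.

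**Figure D3:**
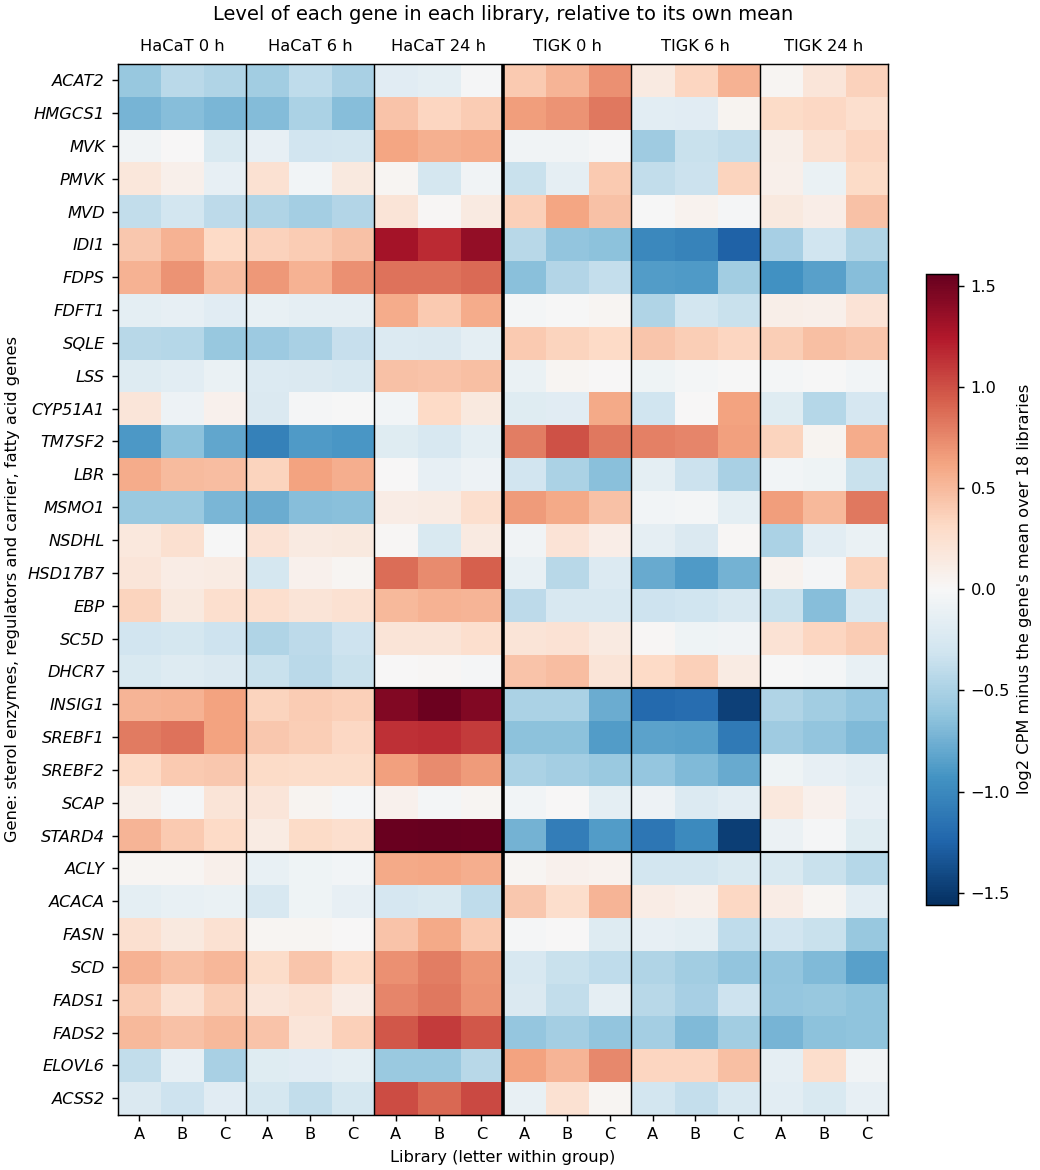
Log2 CPM of each gene in each of the 18 libraries, less the gene's mean over all libraries, with groups in columns and genes in rows by role. The 3 HaCaT 24 h columns are among the reddest for INSIG1, STARD4, IDI1, SREBF1 and ACSS2, and the TIGK columns are mostly red for ACAT2, HMGCS1 at 0 h, TM7SF2, MSMO1, SQLE and ELOVL6.

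The changes after the scratch differed between the lines for a large part of the genes at 24 h. Tested as the HaCaT change minus the TIGK change against 0 h, 20 of the 32 genes had a higher and 1 a lower 24 h response in HaCaT, where 13.5% of all genes were called, 7.07% higher and 6.45% lower. The median difference of the 32 genes was 0.57 on the log2 scale, against -0.01 over all genes. By role, 13 of 19 sterol enzymes, INSIG1 among the 5 regulators and carriers, and 6 of 8 fatty acid genes were higher. Among the higher ones, the lowest adjusted p belonged to HMGCS1 (1.52 ± 0.11 SE, edgeR adjusted p = 5.3e-10) and ACSS2 (1.46 ± 0.11 SE, edgeR adjusted p = 3.4e-09). ACLY (0.92 ± 0.09 SE, edgeR adjusted p = 9e-08) and INSIG1 (0.86 ± 0.11 SE, edgeR adjusted p = 8e-06) followed. FADS1 (0.79 ± 0.11 SE, edgeR adjusted p = 1.2e-05) and LSS (0.62 ± 0.09 SE, edgeR adjusted p = 1.9e-05) came next. LBR was the gene with the lower response in HaCaT (-0.91 ± 0.15 SE, edgeR adjusted p = 0.00012). The 11 genes not called were PMVK, SQLE, CYP51A1, NSDHL, HSD17B7, SREBF1, SREBF2, SCAP, STARD4, ACACA and ELOVL6. Leaving out TIGK 0 h B or C, TIGK 24 h B, HaCaT 0 h B or C, or HaCaT 24 h A, B or C ended the call of EBP (adjusted p of up to 0.11). Leaving out TIGK 24 h A or HaCaT 0 h C ended that of MVK (up to 0.071). Without both libraries that stand apart 21 were called, with SREBF1 in place of EBP.

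At 6 h, the line difference in response was called for 3 of the 32 genes, all with the higher value in HaCaT. Of all genes 0.752% were called, 0.218% higher and 0.534% lower. The difference was 0.91 ± 0.11 SE, edgeR adjusted p = 2.9e-05, for HMGCS1, and 0.57 ± 0.12 SE, edgeR adjusted p = 0.016, for MSMO1. For INSIG1 it was 0.51 ± 0.11 SE, edgeR adjusted p = 0.031. For HMGCS1 the 6 h change against 0 h was 0.09 in HaCaT and -0.82 in TIGK, on the log2 scale. For MSMO1 it was -0.07 in HaCaT and -0.65 in TIGK, and for INSIG1 -0.19 in HaCaT and -0.70 in TIGK. With 1 library left out, 1 to 4 genes were called. The MSMO1 call was lost without HaCaT 0 h C or 6 h C (adjusted p of up to 0.066). The INSIG1 call was lost without any single HaCaT library of 0 h or 6 h, without TIGK 0 h A, 0 h B or 6 h A, and in both limma fits on FPKM (up to 0.1).

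Set against each other at the same time, the lines differed in most of the genes, as they did in most genes at large. At 0 h 62.6% of all genes were called, and 13 of the 32 were higher in HaCaT (29.3% of all genes were) and 11 were lower (33.3% of all genes). At 6 h, where 62.6% of all genes were called, 17 were higher (29.8%) and 11 were lower (32.8%). At 24 h, where 61.7% were called, 17 were higher (28.6%) and 6 were lower (33.1%). The sterol enzymes were split at 0 h, with 5 higher and 8 lower in HaCaT, and at 24 h 7 were higher and 4 lower. Of the fatty acid genes 4 were higher and 3 lower at 0 h, and 6 were higher and 2 lower at 24 h. Higher in HaCaT at all 3 times were 12 of the 32 genes (20.1% of all genes): IDI1, FDPS, HSD17B7, EBP, INSIG1, SREBF1, SREBF2, STARD4, FASN, SCD, FADS1 and FADS2. Lower at all 3 times were 6 (24.3% of all genes): ACAT2, SQLE, TM7SF2, MSMO1, ACACA and ELOVL6. The call of HSD17B7 at 0 h was lost without TIGK 0 h B, that of FASN at 6 h without TIGK 6 h C, and that of NSDHL at 6 h without TIGK 6 h A or B or HaCaT 6 h A or C, with adjusted p of up to 0.11.

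**Figure D4:**
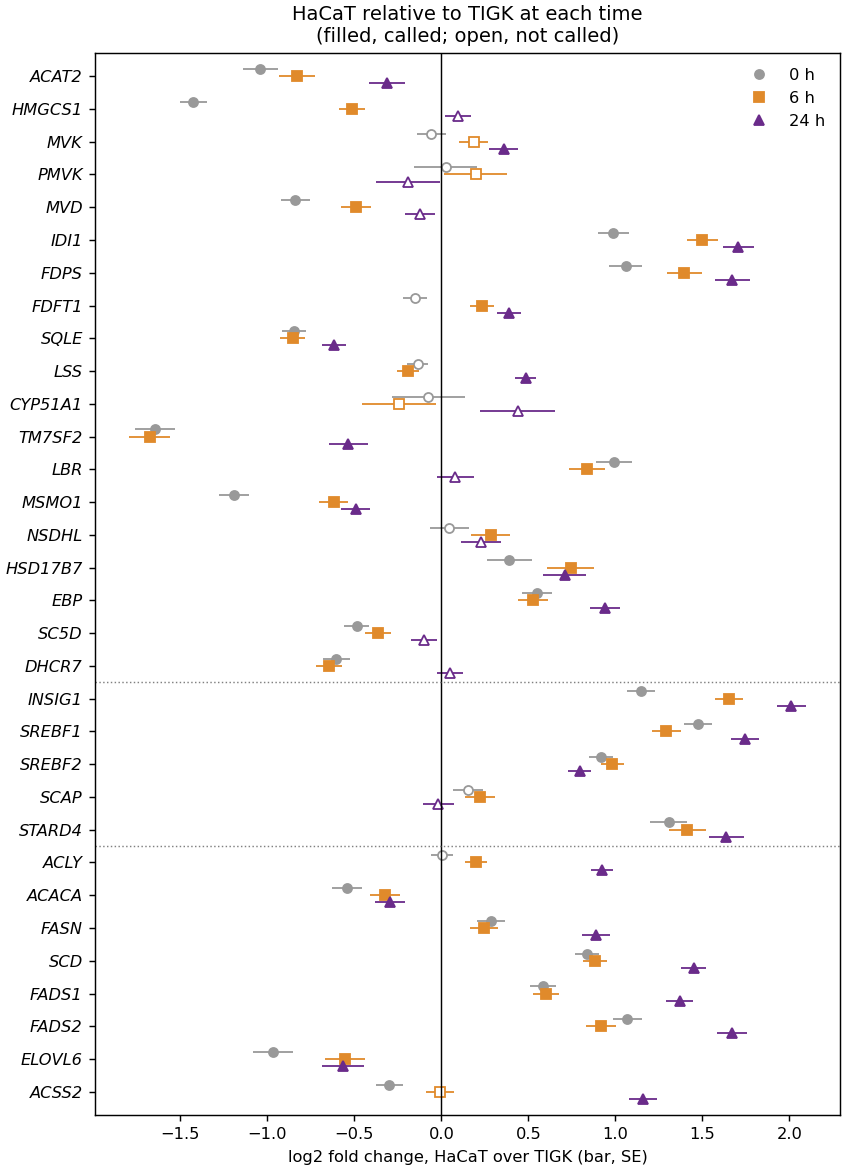
Log2 fold change of HaCaT over TIGK for each gene at 0 h (circles), 6 h (squares) and 24 h (triangles), filled where the edgeR test was passed, with bars of 1 SE. For HMGCS1, MVD, DHCR7 and SC5D the circles and squares lie left of 0 and the open triangles near it, and for ACSS2 the circle lies left and the triangle right of 0.

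Summed by role, the genes held different weights in the lines. The 8 fatty acid genes summed to 12647 ± 355, 11262 ± 412 and 15166 ± 714 CPM in HaCaT at 0, 6 and 24 h and to 8435 ± 412, 7360.3 ± 416 and 6540.4 ± 546 CPM in TIGK (SD, n = 3 each). The 19 sterol enzymes summed to 2175 ± 51.0, 2107 ± 22.6 and 3053 ± 86.7 CPM in HaCaT and to 2895 ± 70.6, 2390.4 ± 35.7 and 2627 ± 89.6 CPM in TIGK. So the sterol sum was higher in TIGK at 0 h and higher in HaCaT at 24 h, with no overlap of libraries at either time. SCD and FASN held most of the fatty acid sum. At 0 h they averaged 8113 and 3580 CPM in HaCaT and 4541 and 2939 CPM in TIGK. ACACA and ELOVL6, lower in HaCaT at each time, weighed little in it. Together the 32 genes took 2.07% to 2.22% of all counts in HaCaT at 24 h and 0.944% to 1.04% in TIGK at 24 h. Per transcript length, as FPKM (fragments relative to transcript length and library size), SCD was the most abundant in HaCaT at 24 h with 1764 ± 76.1 FPKM, followed by FASN (458 ± 31.3), SREBF1 (165 ± 3.69) and INSIG1 (163 ± 5.89), of which SREBF1 and INSIG1 differed by less than their SD. In TIGK at 24 h the order began with SCD (641 ± 51.9 FPKM), FASN (245 ± 26.6), DHCR7 (96.8 ± 4.40) and MVD and MSMO1 (66.8 ± 8.99 and 66.0 ± 7.09), which overlapped. INSIG1 over the 6 group means was most closely followed among the 32 genes by IDI1 (Pearson's r 0.998 of log2 CPM, rank 2 of 17408 genes), and ELOVL6 ran opposite (r -0.874), a description over 6 points that share libraries and lines.

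Other genes of the pathways, not among the 32, did not all move one way. Their counts at 24 h against 0 h stand beside shares of all genes of 15.5% called higher and 15.9% lower in HaCaT, and 15.3% higher and 17% lower in TIGK. Of 7 tested sterol synthesis genes, 2 rose in HaCaT at 24 h against 0 h and none fell, among them ERG28, a scaffold of the demethylation enzymes in yeast, with 77.2 ± 2.22 CPM at 24 h and 50.4 ± 2.96 CPM at 0 h (log2 fold change 0.62 ± 0.09 SE, edgeR adjusted p = 4.2e-06). In TIGK at 24 h 2 of the 7 rose and none fell, and at 6 h 2 fell and none rose (1.12% of all genes called lower). Of 9 genes of SREBP processing and sterol sensing, 1 rose and 3 fell in HaCaT at 24 h, and 4 rose and 2 fell in TIGK. INSIG2, the other INSIG, rose in HaCaT to 22.1 ± 2.11 CPM at 24 h, against 11.9 ± 0.680 CPM at 0 h (log2 fold change 0.89 ± 0.16 SE, edgeR adjusted p = 7.9e-05), and its 24 h response was higher in HaCaT than in TIGK (0.85 ± 0.22 SE, edgeR adjusted p = 0.01). RNF145, a ubiquitin ligase that acts on SCAP, fell in HaCaT (log2 fold change -0.35 at 24 h against 0 h) and rose in TIGK (0.24).

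Of 10 genes of sterol uptake and transport, 4 rose and 4 fell in HaCaT at 24 h against 0 h (15.5% of all genes higher and 15.9% lower), and 1 rose and 3 fell in TIGK (15.3% higher and 17% lower). Those that fell were led in both lines by LRP8, a lipoprotein receptor (-0.66 in HaCaT and -1.02 in TIGK, log2), and TMEM97, a regulator of NPC1 (-0.38 and -0.72). NPC1, which exports cholesterol from lysosomes, was the gene that rose in TIGK (log2 fold change 0.51 ± 0.08 SE, edgeR adjusted p = 1.7e-05). Of 23 tested further fatty acid genes, 9 rose and 1 fell in HaCaT at 24 h, and 10 rose and 4 fell in TIGK, the 4 being near the share of all genes that fell there. ACSL1, which activates fatty acids to acyl-CoA, rose in HaCaT (193 ± 14.3 CPM at 24 h and 89.8 ± 5.53 CPM at 0 h, log2 fold change 1.11 ± 0.08 SE, edgeR adjusted p = 1.2e-10) and in TIGK (90.8 ± 2.56 and 55.5 ± 4.53 CPM, log2 fold change 0.71 ± 0.08 SE, edgeR adjusted p = 2.9e-07). ACACB, the mitochondrial acetyl-CoA carboxylase, rose in HaCaT (1.42, log2), and LPIN1, a phosphatidate phosphatase, in TIGK (0.70). GPAM, which starts glycerolipid synthesis, fell in HaCaT (-1.02) and in TIGK (-0.60). Of these 23 genes, 5 had a higher and 3 a lower 24 h response in HaCaT (7.07% of all genes higher and 6.45% lower). Among the 5, ME1, which makes NADPH, and ACACB had the lowest adjusted p (0.82 ± 0.12 SE, edgeR adjusted p = 3.9e-05 and 1.27 ± 0.19 SE, edgeR adjusted p = 4.1e-05).

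In the files' annotation (hg38), INSIG1 lies at chr7:155297776-155310235, HMGCS1 at chr5:43289395-43313512, ACSS2 at chr20:34872146-34927962, LBR at chr1:225401502-225428925 and SCD at chr10:100347124-100364834. Whether reads were counted by strand is not given in the sources used here, and several of the 32 genes overlap another gene. ACAT2 overlaps TCP1 on the other strand, which had 367% of its counts, MVK overlaps MMAB (62.7%), SREBF1 overlaps RAI1 (32.3%), ACSS2 overlaps GGT7 (22.7%) and FADS1 overlaps FADS2. TM7SF2 overlaps VPS51, and FADS2 overlaps FEN1, on the same strand. For these genes part of the counts may belong to the neighbour or be lost to it, and the same holds for HSD17B7, which has the near copy HSD17B7P2.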

How the data were processed

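Libraries were made from 1 µg of total RNA, per the labels' protocols. Whole-number read counts per gene and FPKM (fragments relative to transcript length and library size) were deposited by the authors for 18 libraries, and the submitters' processing notes name featureCounts 1.5.0-p3, HISAT2 2.0.5, StringTie 1.3.3b and build hg38. Strandedness and other settings are not given in the sources used here. The authors' 10 tables of comparisons were not used.

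The counts were tested with edgeR 4.0.16 (R 4.3.3) by its quasi-likelihood test: genes were kept by filterByExpr, scaled by TMM, and fitted with 6 group means over all 18 libraries (12 residual degrees of freedom), with Benjamini-Hochberg adjustment over 17409 genes and calls at an FDR under 0.05. SE were derived from the fold change and the F statistic. The steps were first tested on simulated data. FPKM served to compare levels between genes. Alternatives were another scaling (RLE), other filters, DESeq2 1.42.0, limma 3.58.1 on log2(FPKM + 1) and log2(FPKM + 0.1), only the groups compared, a block by library letter, and leaving out libraries. The libraries' letters are not tied to the labels' replicate numbers. The libraries held 14238090 to 25011331 counts.

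The members and lists were chosen with earlier results of these data known. Values in every library are given for the 4 genes with the lowest adjusted p called in each direction of each comparison, for up to 6 called in each line difference in response, and for SREBF1, SREBF2, SCAP and INSIG1, and other members by group mean, range and counts. Of the wider lists, up to 2 genes in each direction are named, and some counted genes are not reported here by name.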

Additional observations from a re-analysis of the deposited data

Results flagged for a closer look

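Because the test of the difference between the lines was passed, the response of these genes was marked for a closer look: values are the HaCaT change minus the TIGK change against 0 h on the log2 scale. At 6 h these were HMGCS1 at 0.91, MSMO1 at 0.57 and INSIG1 at 0.51. At 24 h the sterol enzymes among them were ACAT2 at 0.73, HMGCS1 at 1.52, MVK at 0.42, MVD at 0.72, IDI1 at 0.72, FDPS at 0.61 and FDFT1 at 0.54. Further along the route they were LSS at 0.62, TM7SF2 at 1.11, MSMO1 at 0.70, EBP at 0.39, SC5D at 0.39 and DHCR7 at 0.65. LBR, at -0.91, was the gene with the lower HaCaT response. INSIG1 stood at 0.86. The fatty acid genes were ACLY at 0.92, FASN at 0.60, SCD at 0.61, FADS1 at 0.79, FADS2 at 0.60 and ACSS2 at 1.46. Groups of 3 libraries were not tested for outlying values.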

How the results depend on the processing

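The counts of called genes stayed within 1.5 times their main values under every alternative tried in 9 of the 11 comparisons. For HaCaT at 6 h against 0 h (1 gene), fitting only the groups compared gave 2, limma on log2(FPKM + 1) gave 0, limma on log2(FPKM + 0.1) gave 0, and leaving out 1 library gave 0 to 1. In that comparison edgeR called 35 genes in all, only the groups compared 200, DESeq2 105, and edgeR without HaCaT 0 h B 4. For the line difference at 6 h (3 genes), DESeq2 gave 5, the replicate block by letter within line 5, both limma fits 2 (without INSIG1), and leaving out 1 library 1 to 4. The cause was not tested. Of 3099 repeats of the 197 called gene comparisons, 2975 kept their direction and call, 124 kept their direction and lost the call, and 0 reversed. In TIGK, fitting only the groups compared also ended the calls at 6 h against 0 h of ACSS2 and HSD17B7. It ended those at 24 h against 0 h of ACSS2, FDPS, HSD17B7, MVD and NSDHL, and at 24 h against 6 h of MVD and ELOVL6. The call of EBP in the 24 h line difference was lost in the same way. Leaving out the low-count filter ended the TIGK calls at 24 h of HSD17B7 and MVK against 0 h and of MVD against 6 h. It also ended that of LSS between the lines at 6 h. The deviations of same-letter libraries within a line correlated at -0.0249 to 0.388 (median 0.0091, 18 pairs), so the letters were not taken to pair libraries, and the replicate block kept all 197 calls. Leaving out TIGK 0 h C and TIGK 6 h C together, chosen with earlier results of these data known, kept 191.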
